A study of Mus musculus with 96 samples.

Results

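The change of cerebellar gene expression late in life was measured in mice injected with PBS, the saline vehicle of the study, at 22 months of age (3 mice) and at 18 months (4 mice). These libraries were picked by their labels and are 7 of the 96 libraries of the series, and every gene measured in them was considered. All mice were male C57BL/6J mice, and the PBS mice of 22 and of 18 months had both received an injection of PBS on each of 7 consecutive days. The study used bulk mRNA sequencing to map how plasma from young mice acts on the cerebellum, cortex and hippocampus of aged mice. Other cerebella served for comparison: those of mice given young plasma for 7 consecutive days at 22 months (3 mice) or 18 months (5 mice), and those of naive mice of 18 months (3 mice) or 2 months (4 mice). The description of the series gives 3 months for the young naive mice, which the labels call 2 months. A further 7 cerebella from mice of 19 months, with 24 daily injections of plasma or PBS, were used only to estimate the spread between mice. No naive mice of 22 months were analysed here, so the change from 18 to 22 months is that of injected mice.

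Most cells of the cerebellum are granule cells, which are small excitatory neurons. The far fewer Purkinje cells are the inhibitory neurons that carry the output of the cerebellar cortex to the deep nuclei. Microglia of the cerebellum, the resident immune cells, and its astrocytes, which include Bergmann glia, are known in aged mice to express more genes of complement, of the interferon response and of the lysosome. In bulk tissue, more cells of a type and more RNA per cell cannot be told apart.

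The 7 libraries held between 1029695 and 13221576 counts, and replicate 2 at 18 months was the shallowest. Markers of the labelled tissue were abundant in all 7: Gabra6, a receptor subunit of granule cells, had 363 to 451 CPM, the count of a gene scaled to a library total of 1000000, and Pcp2, a Purkinje cell gene, had 247 to 376 CPM. Of the 15 listed lymphocyte and plasma cell genes 13 were in the count table, and none of these passed the filter on low counts. Each library comes from a separate mouse by the labels. A second number in the titles, whose meaning the labels do not give, differs between all mice of 22 months and all mice of 18 months. It also differs between the 2 ages of the plasma mice and between those of the naive mice. It therefore cannot be told apart from age in the PBS, plasma or naive comparison.

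Of 35486 gene symbols in the count table, 17185 passed the filter, and 27 differed between PBS mice of 22 and 18 months at an adjusted p under 0.05 (edgeR quasi-likelihood test, Benjamini-Hochberg adjustment over all genes tested). There were 11 genes that rose (0.064% of those tested), among them the complement gene C4b, the astrocyte gene Gfap and the microglial gene Cx3cr1. There were 16 genes that fell (0.0931%), among them the splicing factor gene Srrm4, the chromatin protein gene Banp and Adcy1, an adenylyl cyclase gene. At an unadjusted p under 0.05, 1252 genes were higher (7.29%) and 1353 lower (7.87%). The levels of the 2 ages did not overlap in any library for 1535 genes that were higher (8.93%) and 1054 that were lower (6.13%), and all 27 called genes were among these. The median change over all genes tested was -0.01 on the log2 scale, and the called genes moved by 0.32 to 2.20 in absolute log2 fold change.

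**Figure D1:**
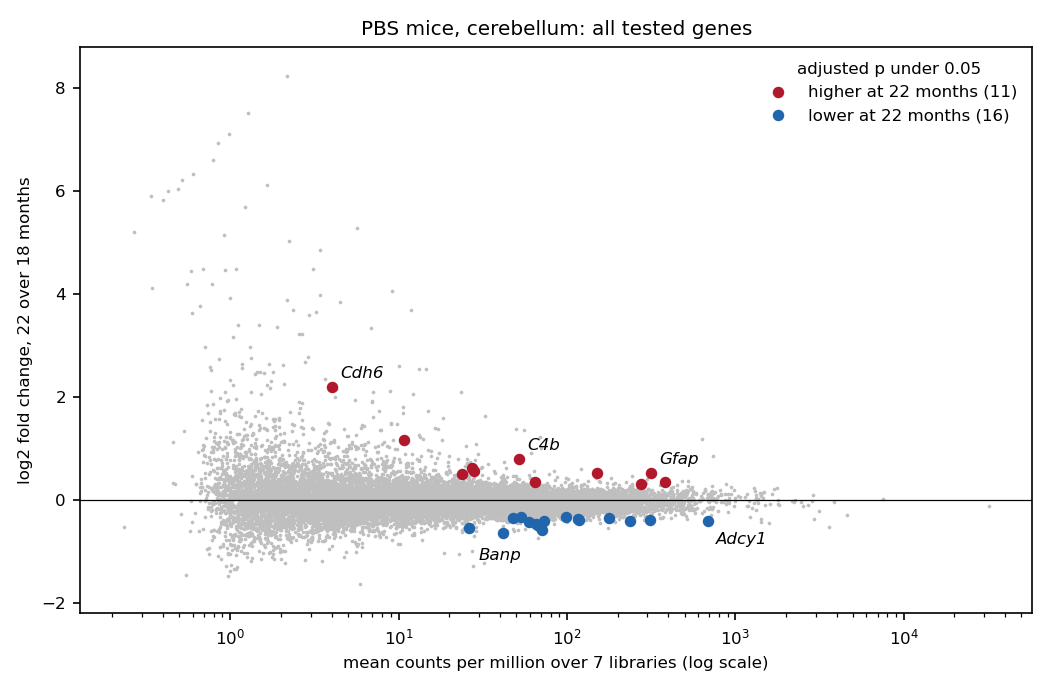
Fitted log2 fold change of 22 over 18 months in PBS mice (vertical) against the mean CPM of the 7 libraries (horizontal, log scale) for all 17185 tested genes in grey, with the 11 genes that rose in red and the 16 that fell in blue (adjusted p under 0.05). The called genes lie between -0.63 and 2.20 and nearly all above 5 CPM, while the genes with the most positive changes are of low level and uncalled.

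The count of 27 depended on single libraries. It was 1 without replicate 2, 5 or 8 of the 18-month mice, 247 without replicate 11 of the same group, and 1, 2 and 54 without replicates 18, 21 and 15 of the 22-month mice. C4b was past the threshold in all 7 of these fits and in all 10 other settings tried. DESeq2 called 120 genes, 21 of the 27 among them. It gave no adjusted p for the others, which were Cdh6, Wdr35, Cx3cr1, Ier2, 5330417C22Rik and Cd83.

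C4b, the complement component C4 that C1s cleaves in the classical pathway (17:34728380-34743882 in GRCm38, minus strand), had 70.0, 68.5 and 69.4 CPM at 22 months, against 38.9, 39.6, 37.2 and 40.5 CPM at 18 months. Every mouse of 22 months was far above every mouse of 18 months, and the SD within an age was 0.723 CPM at 22 months and 1.40 CPM at 18 months. The log2 fold change was 0.80 ± 0.12 (SE), a 1.75-fold rise, with an adjusted p of 0.0018 (edgeR quasi-likelihood test). Plasma mice had 45.6, 66.8 and 69.7 CPM at 22 months, against 42.6 to 49.3 CPM at 18 months, so only the shallow 22-month library of 877031 counts lay within the younger range. Naive mice had 37.9 to 43.7 CPM at 18 months, against 7.42 to 12.3 CPM at 2 months. C4b thus rose late in PBS mice and early in naive mice, and the late step was smaller than the early one by 1.32 ± 0.20 on the log2 scale (adjusted p = 4.97e-04 for the difference, edgeR). The late step runs from 18 to 22 months and the early one from 2 to 18 months. These spans are unequal, so the difference is not one of rates. Its near-identical copy C4a lies beside it, and reads that fit both copies may have been split between them.

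Gfap, the intermediate filament of astrocytes (11:102887336-102900912), had 392, 396 and 359 CPM at 22 months, against 279, 241, 270 and 261 CPM at 18 months. The ages did not overlap, and the log2 fold change was 0.54 ± 0.10 (adjusted p = 0.0294, edgeR). In plasma mice it had 319, 361 and 384 CPM at 22 months, against 231 to 312 CPM at 18 months, again without overlap, at a log2 fold change of 0.39 ± 0.10 with an unadjusted p of 3.2e-04 and an adjusted p of 0.69. Between 18 and 2 months in naive mice it rose by 0.47 ± 0.10 (adjusted p = 0.00788, edgeR). It was 1 of 16 tested genes of the list of reactive astrocyte genes, 12 of which had positive changes, with a median of 0.23. Serpina3n, a secreted protease inhibitor of reactive astrocytes, stayed low in all 7 libraries, at 3.74, 5.23 and 4.08 CPM at 22 months and 1.94 to 4.13 CPM at 18 months (adjusted p = 0.68).

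Genes of microglia and lysosomes were among those that rose. Cx3cr1, the receptor of the neuronal chemokine fractalkine, had 27.2, 28.3 and 31.5 CPM at 22 months, against 18.4, 22.4, 17.1 and 21.4 CPM at 18 months. Ctsd, the lysosomal protease cathepsin D, had 487, 416 and 422 CPM at 22 months, against 299, 341, 326 and 384 CPM at 18 months. In both genes every mouse of 22 months was above every mouse of 18 months. The log2 fold changes were 0.51 ± 0.11 for Cx3cr1 and 0.35 ± 0.07 for Ctsd, each with an adjusted p of 0.0474 (edgeR), close to the threshold. Both had also risen between 18 and 2 months in naive mice, Cx3cr1 by 0.70 and Ctsd by 0.43 (adjusted p = 5.52e-04 and 5.63e-04, edgeR). Reads of Ctsd and Cx3cr1 cannot be told apart from those of genes that overlap their exons (Gm49369 and Gm33858), since the libraries carry no strand. The same holds for Srrm4 and its antisense gene Srrm4os below. Other called genes described below with such overlaps are Wdr6 (Dalrd3), Prox1 (Prox1os), Erc1 (Gm44317), Hivep2 (Gm26835 and Gm28289), Banp (Gm27011) and Neb (Gm13522).

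**Figure D2:**
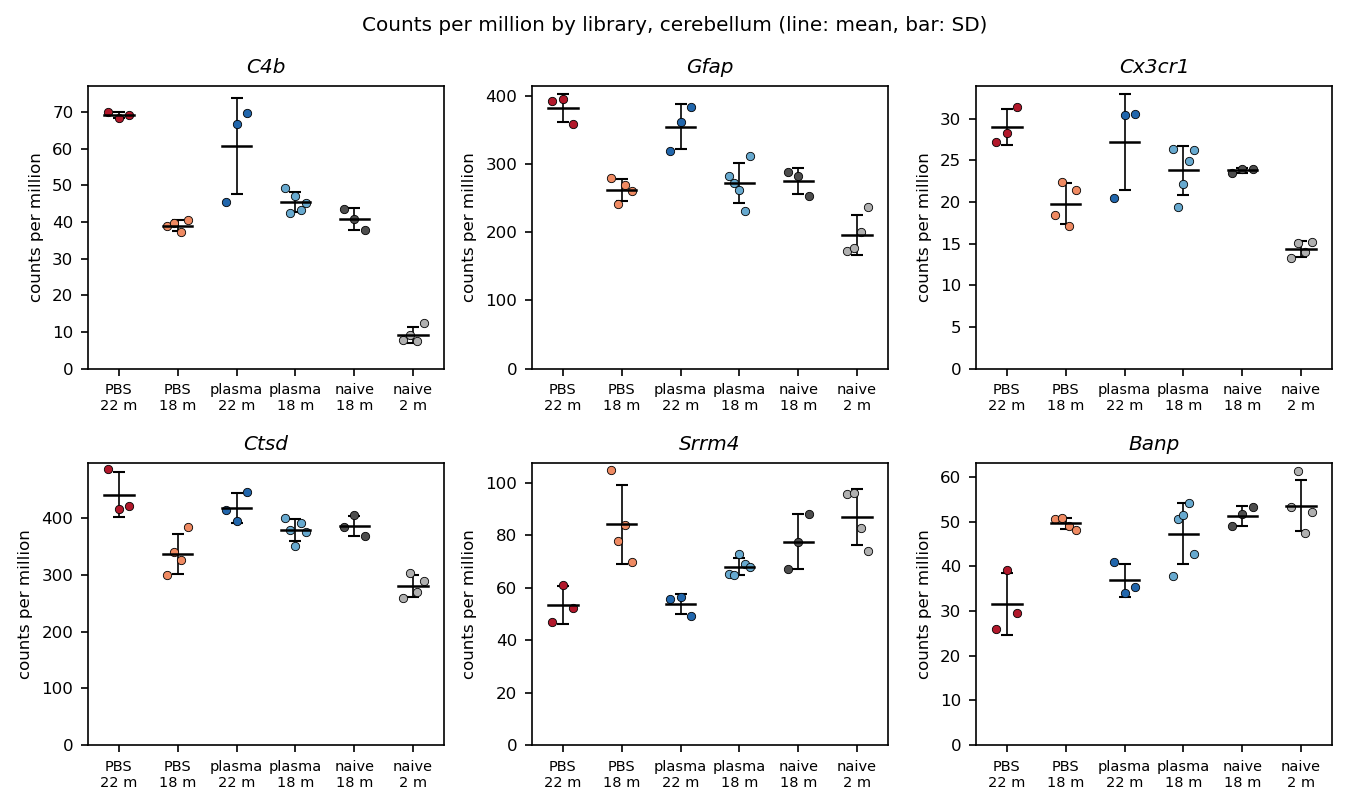
CPM of C4b, Gfap, Cx3cr1, Ctsd, Srrm4 and Banp in each cerebellum library of PBS, plasma and naive mice, 1 point per mouse, with the group mean (line) and SD (bar). In PBS mice the points of 22 and 18 months do not overlap in any of the 6 genes, and in naive mice C4b stands at 37.9 to 43.7 CPM at 18 months and 7.42 to 12.3 CPM at 2 months.

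The sequences before the start of an astrocyte gene and a lysosomal gene that rose and of the most abundant neuronal gene that fell are shown, because all 3 changes passed the test and promoters of such genes are known to carry sites for named factors. They are the 250 bases before the RefSeq start of Gfap (chr11:102897201-102897450, minus strand), Ctsd (chr7:142387828-142388077, minus strand) and Adcy1 (chr11:7063183-7063432, plus strand), read 5′ to 3′ in build GRCm38.p6. Capitals mark CACGTG, the E-box that reads the same on both strands.
Gfap: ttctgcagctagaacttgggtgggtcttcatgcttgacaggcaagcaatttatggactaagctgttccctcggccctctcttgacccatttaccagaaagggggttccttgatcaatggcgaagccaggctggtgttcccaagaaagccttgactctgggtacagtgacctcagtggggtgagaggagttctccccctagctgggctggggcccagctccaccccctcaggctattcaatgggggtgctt
Ctsd: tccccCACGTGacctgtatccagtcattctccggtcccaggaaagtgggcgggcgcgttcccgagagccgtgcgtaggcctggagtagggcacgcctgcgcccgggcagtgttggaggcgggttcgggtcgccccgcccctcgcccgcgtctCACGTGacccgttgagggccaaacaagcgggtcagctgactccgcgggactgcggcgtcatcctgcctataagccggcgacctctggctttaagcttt
Adcy1: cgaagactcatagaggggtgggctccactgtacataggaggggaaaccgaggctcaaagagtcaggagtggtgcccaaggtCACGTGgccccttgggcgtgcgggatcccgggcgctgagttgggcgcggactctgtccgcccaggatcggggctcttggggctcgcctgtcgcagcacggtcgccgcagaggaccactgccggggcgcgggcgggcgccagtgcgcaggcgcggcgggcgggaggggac
Ctsd holds CACGTG 245 and 98 bases before its start and Adcy1 holds it 169 bases before, while 7.874% of the 14948 promoters of tested genes of the same length hold it at least once. None of the 3 windows holds TTCNNNGAA, a motif of STAT factors found on either strand in 5.813% of promoters, or GAGGAAGT, a motif of the microglial ETS factor PU.1 found in 2.141%. The motifs do not overlap each other in these windows. The windows read for Cx3cr1, Srrm4 and Prox1, also called genes, hold none of the 3 motifs, and a match is a description of the letters.

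The other genes that rose have no single role. Cd83, a surface protein of the immunoglobulin family found on activated immune cells, had 39.0, 31.4 and 36.8 CPM at 22 months, against 17.5, 23.5, 23.0 and 25.6 CPM at 18 months (log2 fold change 0.57 ± 0.12, adjusted p = 0.0474, edgeR). Wdr35, a subunit of the transport machinery of cilia, rose by 0.62 ± 0.12, Wdr6, a WD-repeat protein linked to tRNA methylation, by 0.53 ± 0.11, and Reep5, which shapes the endoplasmic reticulum, by 0.32 ± 0.07. The transcript 5330417C22Rik rose by 1.17 ± 0.26. Cdh6, a type II cadherin, had the largest change of the called genes at 2.20 ± 0.43 and was the only one of the 27 with a mean under 5 CPM, at 8.28, 6.77 and 6.73 CPM at 22 months, against 1.94, 1.16, 1.62 and 1.65 CPM at 18 months.

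Several genes that fell are neuronal. Srrm4, the splicing factor that includes microexons in neuronal transcripts, had 47.0, 61.2 and 52.4 CPM at 22 months, against 105, 78.0, 84.1 and 69.8 CPM at 18 months, a log2 fold change of -0.57 ± 0.11 (adjusted p = 0.0294, edgeR). Adcy1, the adenylyl cyclase stimulated by calcium and calmodulin, had 564, 604 and 582 CPM at 22 months, against 831, 760, 800 and 672 CPM at 18 months, a change of -0.40 ± 0.08 (adjusted p = 0.0471). Neither gene overlapped between the ages, and in both the 18-month mouse nearest to the older mice was replicate 11. Erc1, a scaffold of the presynaptic active zone, fell by 0.41 on the log2 scale, Mtcl1, a microtubule crosslinking protein, by 0.38, and Mtss1, a membrane-bending regulator of actin known from Purkinje cells, by 0.37. Prox1, a homeobox factor of granule neurons of the hippocampus that was placed here on a list of cortical and hippocampal neuron genes, fell by 0.41 on the log2 scale, with 58.6 to 62.8 CPM at 22 months and 64.2 to 92.3 CPM at 18 months.

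Of the remaining genes that fell, Banp, a nuclear protein that binds unmethylated promoters, changed most. It had 25.9, 39.2 and 29.6 CPM at 22 months, against 50.5, 50.8, 49.1 and 48.2 CPM at 18 months, a log2 fold change of -0.63 ± 0.12 (adjusted p = 0.0294, edgeR). The 18-month mice were within 3 CPM of each other and the 22-month mice were spread over more than 10 CPM below them. Neb, the giant nebulin of actin filaments, fell by 0.51, Gfod1 by 0.47, Cnksr3, a signalling scaffold, by 0.42, Hivep2, a zinc finger factor, by 0.39 and Daam2, a formin of Wnt signalling, by 0.35 on the log2 scale. Arfgef3, Ilkap and Snx30 fell by 0.34, 0.33 and 0.33. The called genes that fell were long, with a median exon length of 8952 bases, against 4218 bases for those that rose and 4499 bases for all tested genes of at least 5 CPM. In 5 equal groups of those genes by exon length, the median log2 change was -0.02, 0.01, 0.01, -0.00 and -0.05 from the shortest to the longest. In 15 of the 16 genes that fell, replicate 11 was the lowest of the 4 mice of 18 months, which held for 21.2% of all tested genes.

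Among gene lists, those of complement, of the interferon response and of MHC class I had positive changes in nearly all members. Each list is described beside all tested genes, of which 47.9% were higher at 22 months and 7.29% were higher at an unadjusted p under 0.05. Of the tested complement genes all 13 had positive changes, with 5 at an unadjusted p under 0.05 and a median log2 change of 0.32. C1qa, a chain of the C1q initiator, had 27.8, 33.9 and 28.4 CPM at 22 months, against 21.4, 23.5, 26.2 and 23.2 CPM at 18 months, a change of 0.32 ± 0.15 (adjusted p = 0.288). Its ages did not overlap but the change did not pass the test, and C4b was the only member that did. Naive mice had a median of 0.97 for the same list between 18 and 2 months, with 6 members past the threshold. The interferon response list had positive changes in 31 of 33 tested genes, with 14 at an unadjusted p under 0.05, 0 past the adjusted threshold and a median of 0.44. The examples with the smallest p, chosen after their values were seen, were Lgals3bp, Oasl2 and Bst2. Bst2, the tethering antiviral protein tetherin, had 16.3, 12.3 and 15.3 CPM at 22 months, against 1.94, 4.21, 7.91 and 10.1 CPM at 18 months (log2 fold change 1.00 ± 0.29, adjusted p = 0.106). Oasl2, an oligoadenylate synthetase-like antiviral protein, had 20.3, 19.8 and 21.2 CPM at 22 months, against 12.6, 7.41, 13.8 and 9.59 CPM at 18 months (0.98 ± 0.28, adjusted p = 0.0993). In both genes the ages were apart.

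Genes of MHC class I antigen presentation had positive changes in 15 of 15 cases, 7 at an unadjusted p under 0.05, with a median of 0.30 and 0 past the adjusted threshold. H2-K1, a classical class I heavy chain, had 83.8, 75.1 and 76.6 CPM at 22 months, against 50.5, 49.8, 70.3 and 61.4 CPM at 18 months (0.38 ± 0.09, adjusted p = 0.065), and B2m, the shared light chain, had 122, 132 and 119 CPM against 120, 94.7, 100 and 104 CPM at 18 months (0.27 ± 0.10, adjusted p = 0.191). Class I heavy chain genes are near-identical to one another, so their counts are uncertain. H2-K1 did not overlap between the ages, while for B2m the shallow 18-month replicate 2 lay within the older range. All 12 homeostatic microglia genes had positive changes, with a median of 0.23, and 3 were at an unadjusted p under 0.05, among them Cx3cr1 and P2ry12, a purinergic receptor. The list of genes of activated microglia had 20 of 22 positive changes, 14 at an unadjusted p under 0.05, with Ctsd the 1 gene past the threshold and a median of 0.30. Lyz2, the lysozyme of myeloid cells, had 34.2, 31.1 and 31.1 CPM at 22 months, against 18.4, 24.8, 16.0 and 19.0 CPM at 18 months (0.66 ± 0.26, adjusted p = 0.209). These lists share genes, so their counts are not independent. MHC class II genes showed no such pattern, with 4 of 7 positive changes, a median of 0.15 and none under an unadjusted p of 0.05. Cytokine and chemokine genes had 8 of 11 positive changes, 2 at an unadjusted p under 0.05, with a median of 0.28.

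**Figure D3:**
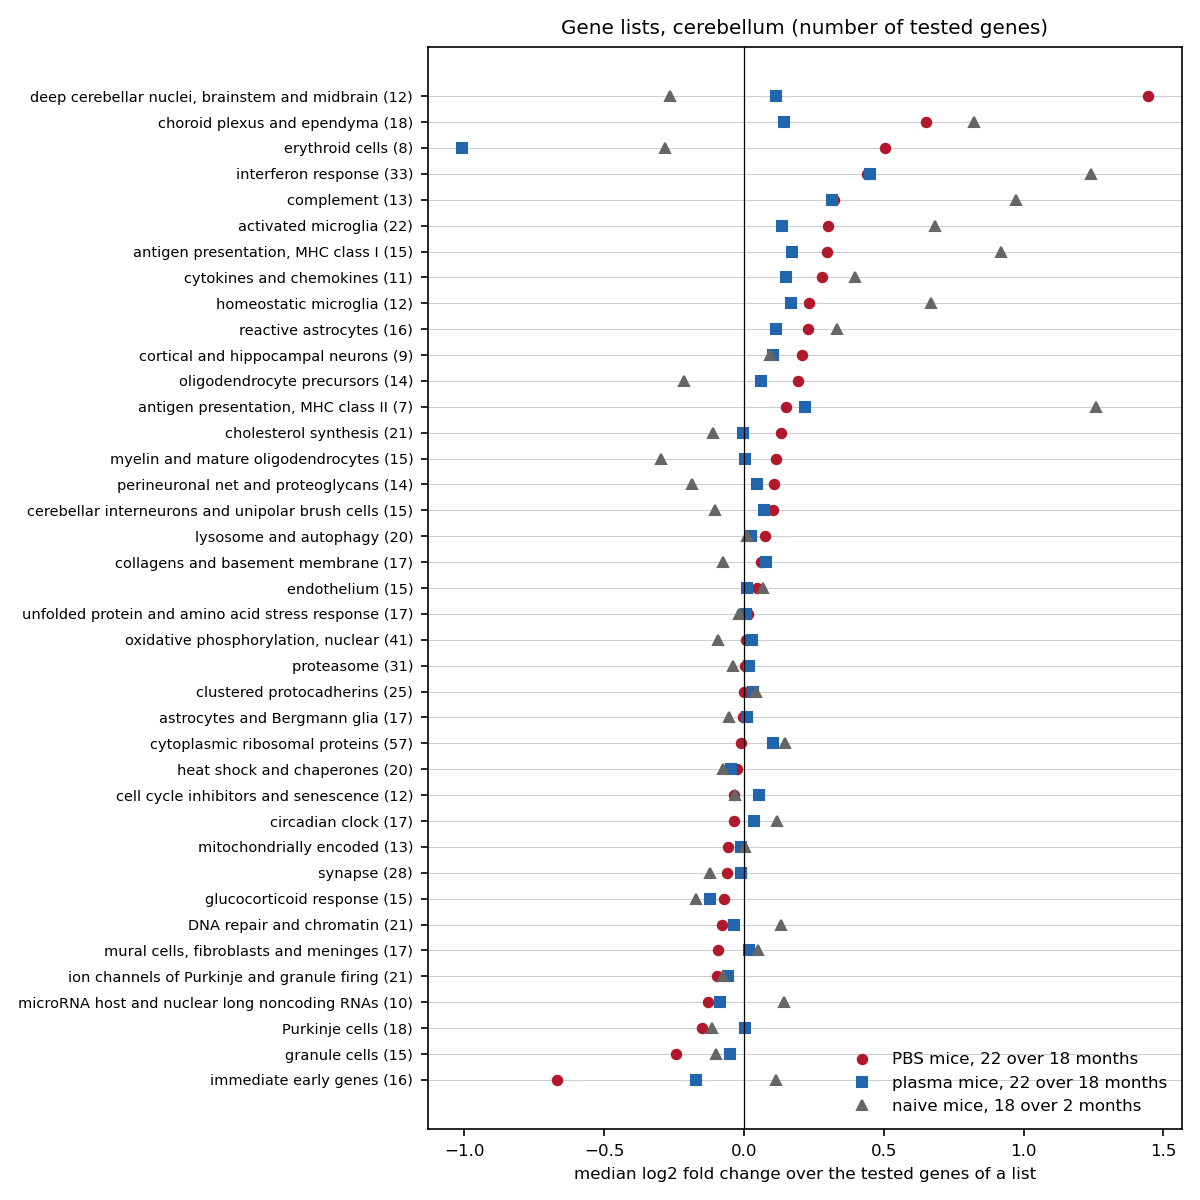
Median log2 fold change over the tested genes of each of 39 gene lists (number of genes in brackets) for 22 over 18 months in PBS mice (red circles), 22 over 18 months in plasma mice (blue squares) and 18 over 2 months in naive mice (grey triangles). Immune lists lie right of 0 in all 3 comparisons, at 0.44, 0.45 and 1.24 for the interferon response, whereas the list of deep nuclei and brainstem genes lies at 1.44 in PBS mice and 0.11 in plasma mice.

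The lists of granule and Purkinje cell genes went the other way. Of the 15 granule cell genes, 14 had negative changes and 11 had an unadjusted p under 0.05, with 0 past the adjusted threshold and a median of -0.24, against 7.87% of all genes lower at that p. Zic1, a zinc finger factor of granule cells, had 180, 223 and 176 CPM at 22 months, against 307, 252, 270 and 245 CPM at 18 months (-0.47 ± 0.12, adjusted p = 0.083). Fat2, a giant cadherin of granule cells, had 219, 261 and 253 CPM at 22 months, against 346, 317, 333 and 289 CPM at 18 months (-0.39 ± 0.09, adjusted p = 0.0562). Both were apart between the ages, but Gabra6, at 378, 401 and 363 CPM at 22 months and 403, 451, 435 and 400 CPM at 18 months, overlapped and had a change of -0.17 ± 0.06 (adjusted p = 0.194). Purkinje cell genes had 15 of 18 negative changes, 5 at an unadjusted p under 0.05, and a median of -0.15. Itpr1, the inositol trisphosphate receptor of Purkinje cells, had 1004, 1103 and 1112 CPM at 22 months, against 1345, 1319, 1471 and 1196 CPM at 18 months (-0.33 ± 0.08, adjusted p = 0.0783). Ion channels of Purkinje and granule cell firing had 17 of 21 negative changes, 9 at an unadjusted p under 0.05, with a median of -0.09. None of these list members passed the adjusted threshold. Genes of cerebellar interneurons and unipolar brush cells had 12 of 15 positive changes, with a median of 0.10, and at an unadjusted p under 0.05 3 were higher and 3 lower.

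Genes listed for the deep cerebellar nuclei, brainstem and midbrain had a higher summed level in all 3 mice of 22 months than in any mouse of 18 months. All 12 tested genes of the list had positive changes, with a median of 1.44. In 9 of them the groups did not overlap, against 8.93% of all tested genes that were higher without overlap. At an unadjusted p under 0.05 were 9, against 7.29% of all tested genes that were higher at that p, and 0 passed the adjusted threshold. The summed level of the 12 genes was 904 to 914 CPM at 22 months, against 656 to 747 CPM at 18 months. Slc17a6, the vesicular glutamate transporter of deep nuclei and brainstem, had 55.0, 48.2 and 55.9 CPM at 22 months, against 18.4, 15.4, 14.9 and 19.0 CPM at 18 months (1.64 ± 0.52, adjusted p = 0.122). Slc6a2, the noradrenaline transporter, had 8.54, 5.23 and 7.41 CPM at 22 months, against 0, 0, 0 and 0.678 CPM at 18 months. Both genes separated the ages completely in PBS mice. In plasma mice Slc17a6 was high in some mice of each age, with 21.7, 16.8 and 67.6 CPM at 22 months and 8.88, 58.9, 58.3, 14.4 and 21.1 CPM at 18 months. Naive mice likewise had 17.1 to 44.5 CPM at 18 months and 16.7 to 70.3 CPM at 2 months, so the level varied several-fold between mice of 1 age.

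The same asymmetry held for all genes with large changes: 82 genes had a fitted log2 change above 2 in PBS mice and 0 had one below -2, against 2 above and 3 below in plasma mice. Their median level was 1.5 CPM, 12 had no count in any PBS mouse of 18 months, and Cdh6 was the 1 gene of the 82 past the adjusted threshold. They include Dbh, the enzyme that makes noradrenaline, at 8.54, 7.49 and 7.41 CPM at 22 months, against 0, 0, 0 and 0.582 CPM at 18 months, and the dopamine receptor gene Drd2, at 5.61, 3.90 and 5.90 CPM against 0 to 0.582 CPM at 18 months. They also include Nrgn, a postsynaptic protein of forebrain neurons, at 18.7, 26.3 and 26.0 CPM at 22 months, against 6.80, 2.18, 1.08 and 1.45 CPM at 18 months. These 3 were chosen after their values were seen, and none passed the adjusted threshold. The 5 plasma mice of 18 months had 0 to 8.35 CPM of Dbh and 1.38 to 45.4 CPM of Nrgn.

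When the mean log2 level of the deep nuclei and brainstem list was added to the fit as a covariate, 5 genes were called in place of 27, and 1015 in place of 2605 genes had an unadjusted p under 0.05. C4b (0.74, adjusted p = 0.031), Banp, Snx30 and Ier2 remained among the 5, and the clock gene Per2 was added. Gfap had a log2 change of 0.48 with an adjusted p of 0.30, and Gabra6 had -0.02. List medians in this fit were 0.49 for the interferon response, 0.34 for complement, 0.39 for MHC class I and 0.36 for activated microglia. They were 0.18 for homeostatic microglia, 0.10 for cytokines and chemokines, -0.01 for MHC class II, -0.04 for granule cells and 0.01 for Purkinje cells. Of the 27 called genes, 7 were also called for the score itself among 1237 in all, namely Cdh6, Wdr6, 5330417C22Rik, Cd83, Reep5, Adcy1 and Mtss1. In this fit the score takes up part of the age difference, because the PBS groups do not overlap in it, at 3.56 to 4.51 at 22 months and 2.40 to 2.83 at 18 months. Its part in the results was not tested beyond this.

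**Figure D4:**
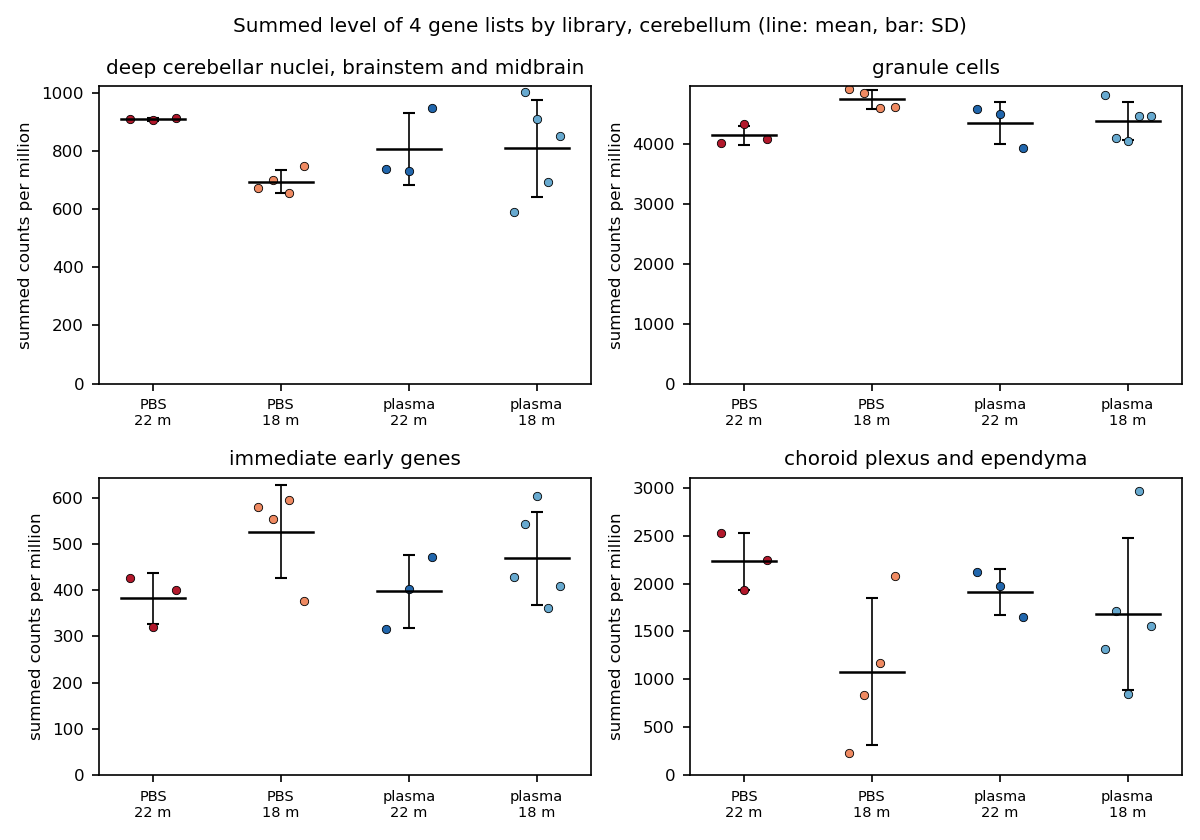
Summed CPM of 4 gene lists in each library of PBS and plasma mice, 1 point per mouse, with the mean (line) and SD (bar). In PBS mice the deep nuclei and brainstem genes are at 904 to 914 CPM at 22 months and 656 to 747 CPM at 18 months, with no overlap, whereas plasma mice of 18 months range from 588 to 1002 CPM.

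Markers of the choroid plexus, which lies in the ventricle beside the cerebellum, also varied. Of its 18 listed genes 17 had positive changes, with a median of 0.65 but 2 at an unadjusted p under 0.05. Ttr, the transthyretin of choroid plexus, had 1175, 940 and 934 CPM at 22 months, against 18.4, 381, 607 and 1107 CPM at 18 months (0.85 ± 1.06, adjusted p = 0.781). The ages overlapped in Ttr. With the choroid plexus score as a covariate 5 genes were called, all of them among the 27.

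Immediate early genes, which neurons and glia switch on within minutes of a stimulus, were lower in 14 of 16 cases, with a median of -0.67. Of these, 10 were at an unadjusted p under 0.05, against 7.87% of all genes lower at that p. Ier2, the 1 member past the threshold, had 25.6, 17.5 and 20.8 CPM at 22 months, against 28.2, 31.4, 31.3 and 28.2 CPM at 18 months (-0.55 ± 0.12, adjusted p = 0.0474, edgeR), and did not overlap. Fos, a subunit of the AP-1 factor, had 22.7, 7.80 and 20.7 CPM at 22 months, against 61.2, 40.1, 59.7 and 12.3 CPM at 18 months (-1.22 ± 0.47, adjusted p = 0.194). Nr4a2, an orphan nuclear receptor, had 16.3, 14.6 and 12.7 CPM at 22 months, against 50.5, 43.0, 42.8 and 14.7 CPM at 18 months (-1.28 ± 0.32, adjusted p = 0.0782). In both genes the 18-month mouse within the older range was replicate 11, which carries another title number, 33810, than the 3 mice of its group. Plasma mice of 18 months with that number had 17.4 and 14.4 CPM of Nr4a2, and those with another number had 38.3, 38.5 and 50.3 CPM. All 3 of the 18-month mice with the number 33810 were thus near the levels at 22 months, which were 9.12 to 18.9 CPM in plasma mice, whereas naive mice had 43.0 to 51.0 CPM at 18 months and 34.4 to 42.4 CPM at 2 months. Without replicate 11 the list median was -1.03. The part of the number in these levels was not tested.

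Of 17 tested clock genes 7 had positive and 10 negative changes, with a median of -0.04 and 4 lower at an unadjusted p under 0.05, against 7.87% of all genes. Per2, a repressor of the circadian clock, had the smallest p of them. It had 34.5, 43.1 and 37.9 CPM at 22 months, against 73.8, 57.6, 65.6 and 46.0 CPM at 18 months (-0.58 ± 0.16, adjusted p = 0.0869), without overlap. In plasma mice Per2 had a change of -0.62 with an unadjusted p of 4.1e-04, and in naive mice it rose by 0.64 between 18 and 2 months (adjusted p = 0.0275, edgeR).

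Of the other lists, myelin and mature oligodendrocyte genes had 14 of 15 positive changes, 3 at an unadjusted p under 0.05, and a median of 0.12, with Mbp, the myelin basic protein, at 2882 to 3113 CPM at 22 months and 2635 to 2916 CPM at 18 months (0.10 ± 0.09, adjusted p = 0.632). Oligodendrocyte precursor genes had 12 of 14 positive changes, 3 at an unadjusted p under 0.05, and a median of 0.19, and Gpr17, a receptor of early oligodendrocytes, had 6.14, 6.05 and 7.11 CPM at 22 months, against 9.71, 6.24, 6.11 and 6.20 CPM at 18 months (0.00 ± 0.22). Erythroid genes had 7 of 8 positive changes with 0 at an unadjusted p under 0.05, and a median of 0.51 that ran between 0.25 and 1.80 with 1 library left out, the highest without replicate 11 of 18 months. Cholesterol synthesis genes had a median of 0.13, with 18 of 21 positive changes and 5 at an unadjusted p under 0.05. With the deep nuclei and brainstem score as a covariate, the median was 0.003 for myelin and mature oligodendrocytes and -0.003 for oligodendrocyte precursors. In that fit it was 0.05 for cholesterol synthesis and 1.17 for erythroid genes. Cytoplasmic ribosomal protein genes had a median of -0.01 with none at an unadjusted p under 0.05, nuclear genes of oxidative phosphorylation had 0.01, and genes of cell cycle inhibition and senescence had -0.04. Fkbp5, a chaperone induced by glucocorticoids, had 15.2, 10.1 and 12.6 CPM at 22 months, against 8.28 to 10.1 CPM at 18 months (0.43 ± 0.23, adjusted p = 0.392).

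The same step of age in mice given young plasma used none of these libraries. No gene passed the adjusted threshold there (0.0%) with edgeR, DESeq2 or limma-voom, the smallest adjusted p with edgeR was 0.503, and 916 genes (5.33%) had an unadjusted p under 0.05, with 538 in DESeq2 and 889 in limma-voom. Title numbers are shared, with 32381 in PBS replicate 21 and plasma replicates 16, 19 and 22 of 22 months. At 18 months PBS replicate 11 and plasma replicates 10 and 13 share 33810. The part of the number was not tested. Of the 27 genes called in PBS mice, 25 had the same sign in plasma mice, against 62.4% of all genes tested. The share was 80.4% and 83.7% for genes higher and lower at an unadjusted p under 0.05 in PBS mice. Of the 27, 13 had the same sign and an unadjusted p under 0.05 in plasma mice, against 4.48% of all genes. All 27 had a larger absolute change in PBS mice, the comparison in which they were called. Daam2 had a change of -0.35 ± 0.07 in both, and C4b, Gfap, Banp, Srrm4 and Neb had 0.52, 0.39, -0.41, -0.36 and -0.46 in plasma mice. The exceptions in sign were Ier2 and Mtss1, with changes of 0.07 and 0.04.

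**Figure D5:**
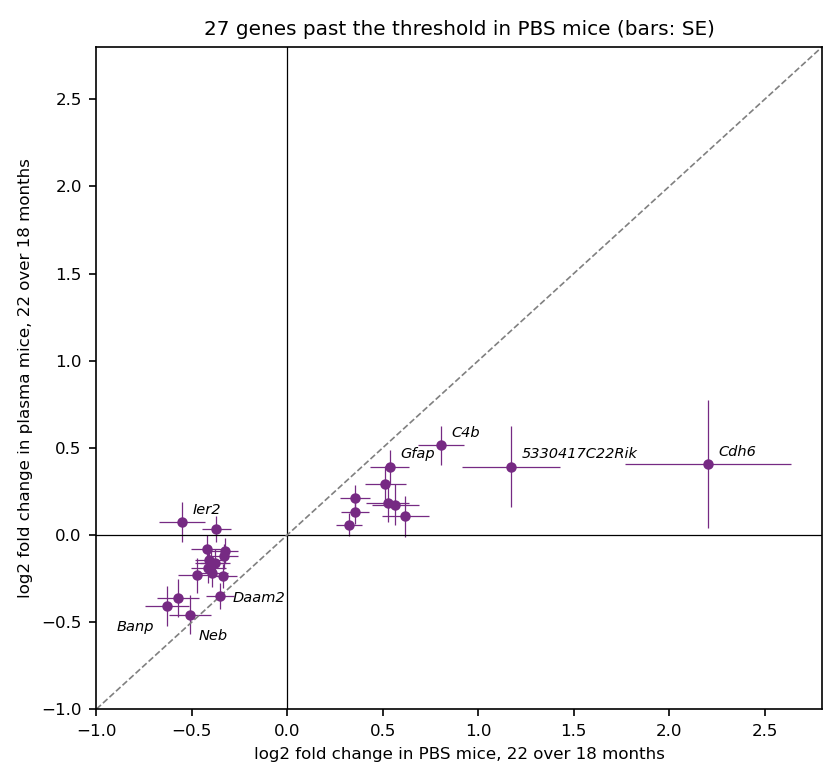
Log2 fold change of 22 over 18 months in plasma mice (vertical) against that in PBS mice (horizontal) for the 27 genes past the threshold in PBS mice, with SE bars and the line of equal change (dashed). Of the 27 points 25 lie in the quadrants of equal sign, and all are nearer to 0 on the plasma axis.

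The difference between the age change of PBS and of plasma mice was tested directly. No gene passed the adjusted threshold with edgeR, DESeq2 or limma-voom, and 625 genes (3.64%) had an unadjusted p under 0.05 with edgeR, 363 with DESeq2 and 968 with limma-voom. For C4b the age change was larger in PBS mice by 0.29 ± 0.16, and for Gfap by 0.14 ± 0.14, on the log2 scale. Across 17185 genes the PBS and plasma age changes had a Pearson r of 0.30 and a Spearman rho of 0.33. Genes are not independent replicates, and both changes come from 1 fit. The median of the interferon list was 0.44 in PBS mice and 0.45 in plasma mice, that of the complement list 0.32 in PBS mice and 0.31 in plasma mice, and that of granule cell genes -0.24 in PBS mice and -0.05 in plasma mice.

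The early step, naive mice of 18 against 2 months, called 411 genes, 228 higher (1.33%) and 183 lower (1.06%), and 194, 247 and 243 genes without replicates 6 and 9 of 18 months and replicate 12 of 2 months. Of the 228 genes that rose early, 144 (63.2%) were higher at 22 than at 18 months in PBS mice, against 47.9% of all tested genes. At an unadjusted p under 0.05, 55 of them were higher and 13 lower, against 7.29% and 7.87% of all tested genes. Of the 183 that fell early, 91 were lower and 92 higher (50.3%), near the 47.9% of all tested genes that were higher. Of the 27 genes called late, 6 were called early, 5 of them in the same direction, among them C4b, Gfap, Cx3cr1 and Ctsd. Neb went the other way, with 73.3, 89.7 and 86.5 CPM in naive mice of 18 months and 53.6 to 67.6 CPM at 2 months, a rise of 0.40 ± 0.11 (adjusted p = 0.0366, edgeR), and with 44.6, 59.8 and 52.1 CPM in PBS mice of 22 months against 61.0 to 105 CPM at 18 months. Its log2 change late was -0.51 ± 0.11 in PBS and -0.46 ± 0.11 in plasma mice.

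The late and early changes differed at an adjusted p under 0.05 in 238 genes (1.38%), 144 with the late change below the early one and 94 above it. The late step runs from 18 to 22 months in PBS mice and the early one from 2 to 18 months in naive mice. Because these spans are unequal, the differences do not compare rates of change. The count was 470 without PBS replicate 11 of 18 months, and 82 to 157 without PBS replicates 21 or 18 of 22 months, PBS replicates 2 or 8 of 18 months, naive replicates 6 or 9 of 18 months or naive replicates 12 or 20 of 2 months. Of the 238, 118 were called in the early comparison. The late and early changes had opposite signs in 219 of them, but genes picked for this difference favour opposite signs, so nothing is read from that count. Over all tested genes the 2 changes had the same sign in 46.2%. Itpr3, an inositol trisphosphate receptor, had 28.3, 27.2 and 29.9 CPM at 22 months and 32.0, 28.6, 30.4 and 25.3 CPM at 18 months in PBS mice (-0.00 ± 0.11), after a rise of 1.32 ± 0.12 between naive mice of 18 months (29.7 to 34.7 CPM) and 2 months (11.2 to 13.7 CPM). Its level thus did not move beyond the spread between mice late in life, and the difference between the steps was -1.32 ± 0.16 (adjusted p = 1.3e-05, edgeR). Ostn, the secreted peptide osteocrin, likewise had a late change of 0.03 ± 0.19 after an early rise of 2.54 ± 0.29. A330023F24Rik, a long noncoding RNA that hosts microRNAs, had 111, 118 and 116 CPM at 22 months, against 160, 136, 162 and 121 CPM at 18 months (-0.31 ± 0.09, adjusted p = 0.0985), and had risen by 0.78 ± 0.09 early. Trank1 had a late change of -0.36 ± 0.11 (adjusted p = 0.115) and an early rise of 0.80 ± 0.11.

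Compared with the cortex of the same PBS mice, the age change of the cerebellum differed in 2 genes (0.0103% of 19490), Cdh6 and Etv1. Etv1, a transcription factor of granule cells, had a mean of 438 CPM at 22 months and 495 CPM at 18 months in the cerebellum, against 95.6 CPM at 22 months and 59.5 CPM at 18 months in the cortex. The difference in log2 change was -0.82 ± 0.16 (adjusted p = 0.0291, edgeR without a mouse block). With the mouse as a block, 0 genes differed with edgeR, with 1666 at an unadjusted p under 0.05, while DESeq2 and limma-voom without the block called 34 and 32. The 2 calls were lost without replicate 2 or 8 of 18 months or replicate 21 or 18 of 22 months in the cerebellum, or without replicate 5, 8 or 11 of 18 months or replicate 21 or 15 of 22 months in the cortex. They were also lost without cerebellum replicate 5 of 18 months, where 1 other gene was called.

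Compared with the hippocampus of the same mice, 140 genes differed (0.718%), 106 with the change of the cerebellum above that of the hippocampus and 34 below it. With the mouse as a block 90 genes differed. The count was 1, 5, 22 and 359 without replicate 18 of the 22-month cerebella and replicates 15, 18 and 21 of the 22-month hippocampi, and 25 to 74 without cerebellum replicate 21 of 22 months, cerebellum replicates 2, 5 or 8 of 18 months or hippocampus replicate 11 of 18 months. Timp2, an inhibitor of metalloproteinases, averaged 99.0 CPM at 22 months and 49.0 CPM at 18 months in the cerebellum, against 202 CPM at 22 months and 371 CPM at 18 months in the hippocampus. Its mean was thus higher at 22 months in the cerebellum and lower in the hippocampus, a difference in log2 change of 1.87 ± 0.36 (adjusted p = 0.01, edgeR). That p is for the difference, and Timp2 was not among the 27 genes called in the cerebellum. The differences were 2.45 ± 0.46 for Cnih3, an accessory subunit of AMPA receptors, 1.67 ± 0.32 for Oprl1, the nociceptin receptor, and -1.22 ± 0.22 for Uxt, a prefoldin-like protein whose exons overlap those of Elk1. With the deep nuclei and brainstem score as a covariate, the cerebellar age change was 0.64 for Cnih3, 0.20 for Oprl1, 0.19 for Timp2 and -0.48 for Uxt, against 1.93, 1.22, 1.01 and -0.47 without it. The part of that score in the difference from the hippocampus was not tested. For C4b the difference did not pass the test against the cortex (-0.54 ± 0.40, adjusted p = 0.845) or the hippocampus (0.17 ± 0.38, adjusted p = 0.965). It averaged 69.3 CPM at 22 months and 39.0 CPM at 18 months in the cerebellum, 62.4 and 23.4 CPM at these ages in the cortex, and 138 and 89.7 CPM in the hippocampus.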

How the data were processed

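Per the labels' protocols, RNA from homogenized tissue was purified on RNeasy columns, turned into cDNA by Smart-Seq2 and made into unstranded Nextera XT libraries, without molecular identifiers. Per the submitters' processing notes, Trim Galore 0.3.7, STAR 2.5.3a, DESeq2 and the build GRCm38 were used. The deposited values are raw counts per gene symbol and library, not normalized by the authors. The counting tool and annotation are not given in the sources used here.

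Groups follow the labels. Counts of the 29 cerebellum libraries of the first experiment were fitted together with edgeR 4.0.16 in R 4.3.3 (filterByExpr with a minimum count of 10, TMM, glmQLFit, glmQLFTest, Benjamini-Hochberg adjustment over all genes tested, threshold 0.05), with 1 coefficient per group, so that 8 groups share 1 estimate of the spread. Regions were compared in a fit of 87 libraries. CPM are counts over the library total, without TMM factors. Cerebellum libraries held 851288 to 18786091 counts, and shallow libraries limit the precision of low genes. Within the cerebellum every p measures the spread between single mice, and the counting error of reads without molecular identifiers is not separated from it. In the main fit of regions, libraries of the same mouse were treated as independent. Its p therefore measure the spread between libraries, and the pairing by mouse enters only in the fit with the mouse as a block. Simulated data tested the scripts.

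Cerebellum, cortex and hippocampus come from the same mice by the animal number in the titles, and the deviations of a mouse in 2 regions had a median correlation of 0.037 over 7 mice with the cortex and 0.031 with the hippocampus.

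Exon lengths and coordinates come from GRCm38 annotation, promoter sequences from RefSeq, GRCm38.p6, and C4b and Cd83 had no promoter entry. Named genes are up to 12 called genes in each direction by fold change, called members of the gene lists, the genes that differ most in each difference test and a fixed set of known ageing and cell type genes, and list examples outside this rule were chosen after their values were seen. The members and the 40 gene lists were chosen with earlier results of these data known. The values of 1 gene are not reported here. Alternatives were other size factors, filters, tools (DESeq2 1.42.0, limma 3.58.1), fits of the compared groups alone, removal of shallow or single libraries, a mouse block and, chosen after seeing the data, covariates for deep nuclei and brainstem genes and for choroid plexus genes.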

Additional observations from a re-analysis of the deposited data

Results flagged for a closer look

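In PBS mice of 18 months, 85 values were checked for a library far from the other 3, and 5 had one, where chance gives about 1 in 20. Wdr35 had 17.98 CPM in replicate 8 and 23.3 to 24.4 CPM in the others, Gpr17 had 9.712 CPM in replicate 2, the shallowest, and 6.11 to 6.24 CPM in the others, and Trank1 had 89.16 CPM in replicate 11 and 104.9 to 107.3 CPM in the others. The summed level of erythroid genes was 161.8 CPM in replicate 11 and 71.9 to 80.0 CPM in the others, and that of genes of the unfolded protein and amino acid stress response was 721.6 CPM in replicate 2 and 797.8 to 809.7 CPM in the others.

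Age changes that differed between the late step in PBS mice and the early step in naive mice (adjusted p under 0.05, edgeR quasi-likelihood test) are given as late minus early on the log2 scale. The early step spans more months than the late one. Below 0 were C4b (-1.325), C1qa (-0.9737), B2m (-0.6513), Itpr3 (-1.318), Ostn (-2.509), Trank1 (-1.156), A330023F24Rik (-1.094), Neb (-0.9102), Gfod1 (-0.7919), Ier2 (-0.7663), Cnksr3 (-0.5589), Mtcl1 (-0.5425), Ilkap (-0.5421), Snx30 (-0.5071) and Mtss1 (-0.4258). Above 0 were Cdh6 (2.898), 5330417C22Rik (1.391), Gpr17 (1.304), Wdr35 (0.7357) and Reep5 (0.4258).

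Between regions of PBS mice, the late age change of the cerebellum minus that of the cortex was 2.748 for Cdh6 and -0.8199 for Etv1. Minus that of the hippocampus it was 2.448 for Cnih3, 2.23 for Cdh6, 1.872 for Timp2, 1.671 for Oprl1, 1.292 for Wdr6, 1.071 for 5330417C22Rik and 0.3414 for Reep5. It was -1.223 for Uxt, -0.937 for Adcy1, -0.6246 for Hivep2 and -0.5087 for Snx30.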

How the results depend on the processing

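For PBS mice of 22 against 18 months, the 27 calls became 15 with relative log expression size factors, 312 without a filter on low counts, 120 with DESeq2, 292 with limma-voom, 47 with a robust fit, 483 with the groups compared alone, 1 without libraries under 2500000 counts, and 5 with either covariate, of deep nuclei and brainstem genes or of choroid plexus genes. Leaving out 1 library gave 1 to 247. The early step had 678 calls with limma-voom, 250 with the choroid plexus covariate, and 194 to 350 with 1 library left out. Late minus early had 548 calls with limma-voom, 533 alone, 139 without shallow libraries, 38 with the deep nuclei and brainstem covariate, and 82 to 470 with 1 library left out. PBS minus plasma had 2 calls without a filter, 2 alone, and 0 to 1 with 1 library left out. The cause of these shifts was not tested.

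With the mouse as a replicate block, cerebellum minus cortex had 0 calls and cerebellum minus hippocampus 90. The first had 32 calls with limma-voom, 34 with DESeq2, 118 alone, 0 without shallow libraries, and 0 to 2 with 1 library left out. The second had 690 with limma-voom, 451 alone, 49 without shallow libraries, and 1 to 359 with 1 library left out. Within the cerebellum each mouse gives 1 library, so no block applies there. Changes were recomputed for the 27 called genes and for B2m, C1qa, Fos, Gabra6, Slc17a6 and Per2. Of these 560 recomputed changes, 325 kept their side of the threshold, 226 lost significance, 9 gained it and 0 changed sign. Fits of DESeq2 that gave no adjusted p were counted as not past the threshold. Of 126 recomputed differences between regions, 95 kept their side and 31 lost significance. In replicate 2 of 18 months, with 1029695 counts, a gene of 1 CPM rests on about 1 read.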
